A study of Mus musculus with 28 samples.

Results

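The arrays described here carry RNA of mouse macrophages that had received interferon-γ (IFN-γ) and no added lipopolysaccharide (LPS), a bacterial product. They were chosen by their titles, which name IFN-γ as the treatment of the marrow-derived macrophages and no LPS, and they make up 3 of the 28 arrays of the series. The comparison group is the 7 arrays of untreated cells. Bone marrow of C57BL6/J mice aged 8 to 12 weeks was pooled over several animals, labelled as 2 males and 1 female, and grown in human recombinant CSF1 (200 ng/ml), the growth factor that turns marrow cells into macrophages. On day 7 the cells received IFN-γ at 100 U/ml for 18 h, or neither cytokine nor LPS in the untreated group. Arrays of 2 further groups serve for direct contrasts, with LPS (10 ng/ml, last 4 h, 7 arrays) or IL-4 (10 ng/ml, 18 h, 4 arrays). All groups share the strain, the CSF1 and the pooling, carry no gene deletion, and come from culture, so they model macrophages without the other cells of a tissue. Arrays are named by experiment letters, E, F and G for IFN-γ and A to G for untreated cells, and the series' design text calls the experiments independent.

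IFN-γ is the cytokine by which T cells and natural killer cells activate macrophages. It binds a receptor of the chains IFNGR1 and IFNGR2, whose kinases JAK1 and JAK2 start a signal that ends at gamma-activated sites (GAS) in promoters. Among the first targets is the factor IRF1, which with other IRF factors binds interferon-stimulated response elements (ISRE) in a later wave of genes. The products of this response attack microbes inside the cell, draw T cells by chemokines, and raise antigen presentation to CD8+ and CD4+ T cells.

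Each array reports 1 Cy3 intensity per probe. A level is the log2 of that intensity relative to the 75th percentile of its array, so a level of 0 is the 75th percentile and negative levels lie below it. Among the 10 arrays the percentile lay between 750 and 2113 intensity units, with 61.4% to 78.7% of probes well above background. A gene is represented by its brightest probe, and levels of different probes are not set against each other. A change is the IFN-γ mean minus the untreated mean on the log2 scale, ± its standard error in the limma model, and a gene was called at a Benjamini-Hochberg adjusted p under 0.05 over 22445 tested genes. Across genes, which are not independent replicates, IFN-γ arrays correlated with one another at 0.974 to 0.991 and untreated arrays at 0.940 to 0.989, with untreated array G the least like the others. Without that array 2827 genes were higher and 2641 lower with IFN-γ. All 10 macrophage markers listed were well above background on all 10 arrays, among them Adgre1 (F4/80), Csf1r (the CSF1 receptor) and Cd68.

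IFN-γ changed the RNA of a large part of the measured genes. Of the 22445 tested genes, 2841 (12.7%) were higher and 2962 (13.2%) lower than in untreated cells. Among them 510 rose and 651 fell at least 4-fold, and 85 rose and 43 fell at least 16-fold. In 2596 genes (11.6%) all 3 IFN-γ arrays lay above all 7 untreated arrays, and in 2980 (13.3%) they lay below. The median over all tested genes was -0.29, and list medians below are read against it. Scaling by the median of each array in place of the 75th percentile moved it to 0.16 and turned 49.0% higher among calls into 77.8%, so small falls depend on the scaling. Without IFN-γ array E, 1804 genes were lower. Untreated arrays A, B, E and G were scanned on days without an IFN-γ array. IFN-γ arrays E and F each shared a slide with an untreated array, and array G a scan day with another. In all 3 sets 5578 of the 5803 called genes differed in the direction of the model, which used the same arrays, and so did 38.0% of the genes not called. With the slide as a block 3803 genes were higher and 3641 lower, and with the scan day 3652 and 3500.

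Most genes of the IFN-γ signal relay rose, the SOCS inhibitors furthest. Of 17 tested relay genes 14 rose and 0 fell, with a median of 1.32. Socs1, the suppressor that binds JAK kinases and ends the signal, stood at levels of 6.44, 6.41 and 6.42 in IFN-γ arrays E, F and G, against a lowest, median and highest untreated level of -0.06, 0.52 and 0.87. All 3 arrays were above all 7 untreated arrays, and the change was 5.93 ± 0.24 (adjusted p = 1.11e-14), or 61.0-fold. Socs3, which inhibits cytokine receptors that act through STAT3, had levels of 5.03, 4.80 and 3.34 against -1.30, -0.45 and 0.29, with array G the lowest of the treated arrays and still above every untreated one (4.92 ± 0.33). Cish, a further member of the SOCS family, changed by 4.88 ± 0.66, and array G again had its smallest rise.

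Both receptor kinase genes rose. Jak2 had levels of 4.24, 3.87 and 3.15 with IFN-γ and 0.98, 1.19 and 1.84 without, with no overlap, and changed by 2.48 ± 0.24 (adjusted p = 2.69e-08), and Jak1 changed by 0.76 ± 0.21. The transcription factor genes Stat3 (1.52 ± 0.28) and Stat2 (1.05 ± 0.21) rose as well. Among genes that limit the pathway, the phosphatase genes Ptpn2 (1.98 ± 0.19) and Ptpn6 (0.60 ± 0.19) and the ISG15 protease gene Usp18 (2.13 ± 0.14) rose. Nmi (1.46 ± 0.23), whose product binds STAT factors, and Parp14 (0.99 ± 0.16) were higher too. Of the receptor chain genes, Ifngr2 rose by 0.58 ± 0.19, a call lost without IFN-γ array G (0.52) or E (0.58), while Ifngr1 had levels of 5.49, 5.45 and 6.76 against 5.99, 6.25 and 6.44 and did not pass the test (-0.34 ± 0.31, 95% interval -0.97 to 0.29). Array G was above and arrays E and F below the untreated range for that gene. Ptpn11 (95% interval -0.19 to 0.68) and Pias1 (-0.04 to 0.52) also missed the threshold. The call of Ptpn6 was lost without array G (0.45) or F (0.58), and Ptpn11 was higher with the scan day as a block (0.40). With quantile normalization 11 relay genes were higher and 1 lower.

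Transcription factors of the second wave mostly rose. Of 15 tested factors 9 rose and 1 fell (median 1.46). Irf1 reached 8.01, 7.86 and 8.18 with IFN-γ against 4.22, 4.81 and 5.54 without, with no overlap, a change of 3.17 ± 0.23 (adjusted p = 1.11e-10, 8.99-fold). Irf8, which with PU.1 directs macrophage genes, had levels of 6.50, 6.17 and 5.56 against 4.07, 4.20 and 5.01. The 3 IFN-γ arrays were above all untreated arrays (1.72 ± 0.32). Irf7 (1.73 ± 0.25), Irf5 (1.47 ± 0.22) and Irf2 (1.46 ± 0.26), a partner and competitor of IRF1, rose as well. Batf2, which pairs with IRF1 in activated macrophages, had levels of 6.13, 6.24 and 6.36 against 0.84, 1.63 and 1.82. Its change of 4.71 ± 0.19 was 26.2-fold, and its untreated arrays were all far below. Ciita, the master activator of MHC class II genes, stood at 3.00, 3.25 and 3.10 against -1.88, -0.28 and 0.83. The untreated arrays spread over more than 2 log2 units and still did not reach the IFN-γ arrays (3.53 ± 0.44, adjusted p = 9.99e-07). Cebpb (2.15 ± 0.25) and Batf (1.04 ± 0.16) rose. Irf4, a factor of alternatively activated macrophages, was the member that fell (-2.67 ± 0.37), with levels of -4.79, -5.18 and -5.85 against -3.48, -2.83 and -1.66. Irf3, Irf9, Batf3 and Spi1 (PU.1) were not called, with 95% intervals of -0.65 to 0.16, -0.25 to 0.33, -0.90 to 0.42 and -0.11 to 0.99.

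**Figure D1:**
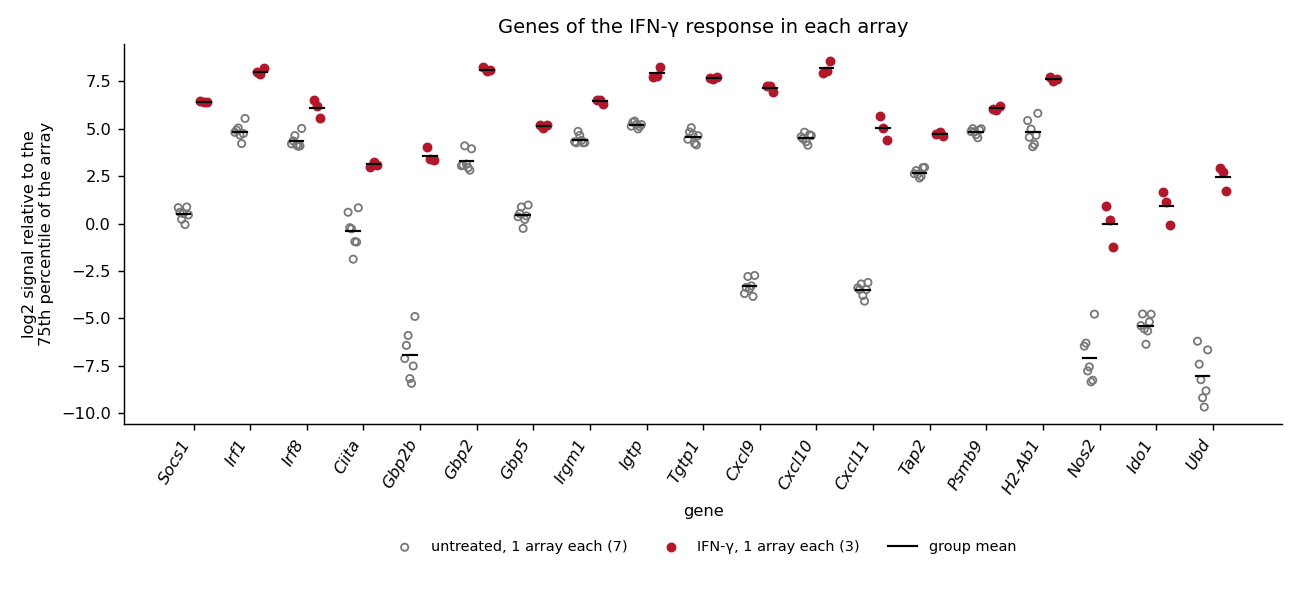
Levels of 19 genes of the IFN-γ response in each untreated array (open circles, n = 7) and each IFN-γ array (filled circles, n = 3), as log2 signal relative to the 75th percentile of the array, with group means as bars. For each of these genes all 3 filled circles lie above all 7 open circles, with the widest gaps for Gbp2b, Cxcl9 and Ubd.

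The interferon-induced GTPases, which attack membranes around intracellular microbes, rose in both of their families. All 9 tested guanylate-binding protein genes rose (median 4.70), and all 9 had no overlap between groups. Of 9 tested immunity-related GTPase genes 7 rose and 0 fell (median 2.02). Promoter stretches of members whose 250 bases before the start hold letters of the pathway's binding sites are shown, because they let these letters be set beside the rise. They read 5′ to 3′ on the strand of the gene and come from RefSeq's GRCm38.p6 annotation. Capitals mark matches to the GAS letters TTCNNNGAA or to the ISRE core GAAANNGAA and its reverse complement, and overlapping matches run together.
Gbp2b, chr3:142594691-142594739, plus strand: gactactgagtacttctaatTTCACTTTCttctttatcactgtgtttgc
Gbp2, chr3:142620585-142620633, plus strand: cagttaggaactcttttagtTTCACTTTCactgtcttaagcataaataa
Gbp3, chr3:142559980-142560034, plus strand: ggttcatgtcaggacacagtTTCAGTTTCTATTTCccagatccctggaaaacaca
Gbp5, chr3:142496684-142496910, plus strand: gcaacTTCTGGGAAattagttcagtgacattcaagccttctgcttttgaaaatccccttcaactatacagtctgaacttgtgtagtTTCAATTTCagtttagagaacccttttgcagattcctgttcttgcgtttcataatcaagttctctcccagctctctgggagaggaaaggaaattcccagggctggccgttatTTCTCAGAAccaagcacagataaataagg
Gbp7, chr3:142530210-142530312, plus strand: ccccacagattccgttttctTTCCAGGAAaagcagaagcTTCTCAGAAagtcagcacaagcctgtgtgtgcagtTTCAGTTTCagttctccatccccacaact
Igtp, chr11:58199491-58199550, plus strand: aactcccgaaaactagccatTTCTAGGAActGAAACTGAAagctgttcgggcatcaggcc
Irgm2, chr11:58214882-58214941, plus strand: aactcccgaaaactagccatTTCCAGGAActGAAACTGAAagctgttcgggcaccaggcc
Tgtp1, chr11:48992295-48992354, minus strand: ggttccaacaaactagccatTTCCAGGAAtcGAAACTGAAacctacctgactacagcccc
Irgm1, chr11:48871421-48871470, minus strand: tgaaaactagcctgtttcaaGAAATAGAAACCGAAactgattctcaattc

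All 5 guanylate-binding protein genes in the promoter table held the ISRE core in the 250 bases before a start. Gbp5 and Gbp7 held GAS letters as well. The window of the other annotated start of Gbp3 holds neither. Of 6 immunity-related GTPase genes in it, 4 held the ISRE core. In Igtp, Irgm2 and Tgtp1 a GAS match is followed, 2 bases after its end, by an ISRE core, and the 3 stretches share most of the letters around it. Irgm1 has a pair of overlapping ISRE cores in a similar place and no GAS match.

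Gbp2b, a guanylate-binding protein called Gbp1 in older work, had levels of 4.01, 3.39 and 3.35 with IFN-γ and -8.43, -7.12 and -4.90 without, and it was well above background on 2 of 7 untreated arrays. Every IFN-γ array was above every untreated one, and the change of 10.51 ± 0.64 (adjusted p = 8.85e-12) is a fitted value that rests in part on untreated signal not above background. Gbp4 had levels of 6.45, 6.21 and 4.40 against -1.12, -0.75 and 0.10, with array G the lowest of the treated (6.39 ± 0.48). Gbp2 reached 8.23, 8.04 and 8.09 against 2.81, 3.09 and 4.10, and there the 3 treated arrays lay within 0.2 log2 units of one another (4.83 ± 0.33, 28.4-fold). Gbp5 (4.71 ± 0.29), Gbp8 (4.70 ± 0.40) and Gbp6 (4.59 ± 0.32) rose too, and so did Gbp3 (3.47 ± 0.31), Gbp7 (3.06 ± 0.31) and Gbp9 (1.80 ± 0.27). Genes of this family are close in sequence, and probes may share signal between them.

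Among the immunity-related GTPases, Iigp1 (Irga6), which coats vacuoles of parasites, had levels of 7.34, 7.52 and 7.67 against 2.24, 2.68 and 3.41 and changed by 4.76 ± 0.35 (adjusted p = 1.97e-10). Tgtp1 (Irgb6) stood at 7.67, 7.64 and 7.75 against 4.15, 4.63 and 5.05 (3.12 ± 0.20). The IFN-γ arrays of both genes were tight and far from the untreated range. The regulatory members that keep these GTPases inactive on the cell's own membranes rose too: Igtp (Irgm3) by 2.71 ± 0.16, Irgm2 by 2.11 ± 0.22 and Irgm1 by 2.02 ± 0.22. Ifi47 (1.75 ± 0.28) and the very large GTPase gene Gvin1 (1.11 ± 0.19) followed. Irgq, with levels of -0.43, -0.52 and -1.33 against -1.23, -0.77 and -0.49, and Irgc1 were not called (95% intervals -0.38 to 0.51 and -1.68 to 0.47), and for Irgq the groups overlapped.

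Over all promoters the same letters are not rare. GAS letters were held by 8.13% of the 27025 genes with a promoter and the ISRE core by 8.18%, in the 250 bases before a start. Among the 339 genes with a promoter that rose at least 4-fold these shares were 10.9% and 14.2%, and among the 404 that fell at least 4-fold 7.18% and 5.45%. Genes that were not called had shares of 7.56% and 7.61%. Of the 32 antiviral genes with a promoter 16 held the ISRE core and 6 GAS letters, and of the 13 MHC class I genes 4 and 1. Of the 11 transcription factor genes 4 held GAS letters and 1 the ISRE core. Of 7 CXC chemokine genes 1 held GAS letters and 3 the ISRE core. Other lists held few: of 9 MHC class II genes 1 held GAS letters and 1 the ISRE core, and of 13 relay genes 1 and 2. Of 4 immunoproteasome genes 1 held GAS letters and 0 the ISRE core. These shares describe letters only, no test was made of them, and no match means only that the letters are absent from this window.

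**Figure D2:**
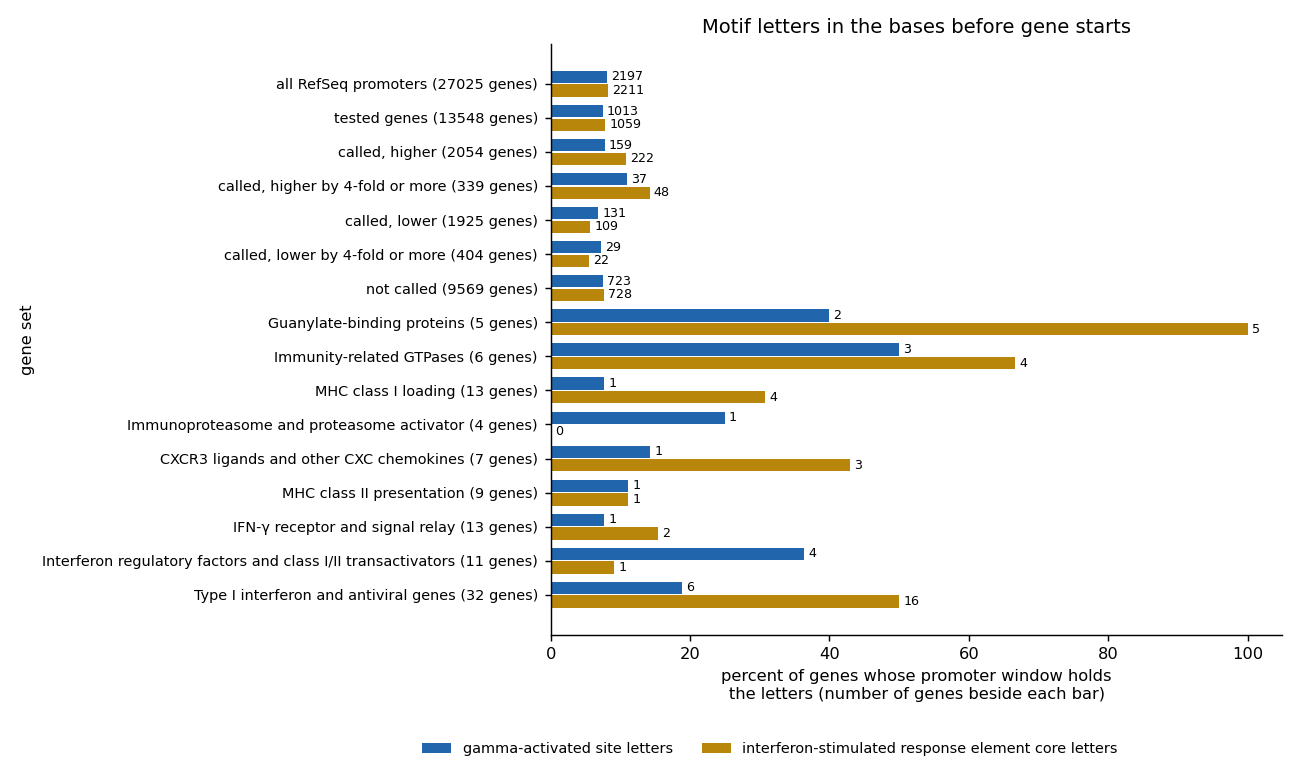
Percent of genes (x axis) whose 250 bases before a RefSeq gene start hold the GAS letters (blue) or the ISRE core letters (gold), for all promoters, for genes by their change with IFN-γ, and for gene lists; numbers beside bars are genes. The share with the ISRE core is 8.18% over all promoters and 14.2% among genes that rose at least 4-fold.

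Other induced genes with such letters are shown because they stand for separate arms of the response: the chemokines, the feedback inhibitor, both transcription factors, an immunoproteasome subunit and a pair of serpins.
Cxcl9, chr5:92328226-92328274, minus strand: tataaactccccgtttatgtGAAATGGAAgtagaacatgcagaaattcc
Cxcl10, chr5:92349074-92349122, minus strand: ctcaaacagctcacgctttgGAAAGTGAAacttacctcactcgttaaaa
Socs1, chr16:10785585-10785639, minus strand: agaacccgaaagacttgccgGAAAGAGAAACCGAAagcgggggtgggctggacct
Irf1, chr11:53769904-53769952, plus strand: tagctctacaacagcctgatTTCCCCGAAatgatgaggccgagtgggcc
Irf8, chr8:120736167-120736233, plus strand: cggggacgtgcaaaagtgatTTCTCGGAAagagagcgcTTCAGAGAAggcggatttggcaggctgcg
Psmb8, chr17:34198078-34198126, plus strand: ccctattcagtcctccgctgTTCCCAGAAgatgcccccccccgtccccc
Serpina3f, chr12:104214397-104214451, plus strand: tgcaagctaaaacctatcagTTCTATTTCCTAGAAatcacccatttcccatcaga
Serpina3g, chr12:104236094-104236142, plus strand: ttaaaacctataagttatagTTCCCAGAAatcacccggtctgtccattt
Irf1 and Irf8, transcription factors that rose, hold GAS letters without an ISRE core before the start shown, Irf8 at 2 places. The window of the other annotated start of each holds neither. Cxcl9, Cxcl10 and Socs1 hold the ISRE core without GAS letters. In Serpina3f an ISRE core and a GAS match overlap, and the neighbouring Serpina3g has a GAS match in similar surroundings.

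RNA of the 3 chemokines known as ligands of CXCR3, a receptor of T cells, rose. RNA of those that draw neutrophils did not pass the test. Protein was not measured. Of 10 tested CXC chemokine genes 4 rose and 1 fell (median 0.85). Cxcl9 had levels of 7.27, 7.25 and 6.94 with IFN-γ and -3.84, -3.37 and -2.74 without, Cxcl11 of 5.65, 5.06 and 4.41 against -4.10, -3.48 and -3.11, and Cxcl10 of 7.91, 8.07 and 8.56 against 4.13, 4.57 and 4.82. No IFN-γ array overlapped the untreated range for any of them, and the changes were 10.47 ± 0.53 (adjusted p = 4.02e-13, 1414-fold), 8.55 ± 0.38 and 3.66 ± 0.27. In the 3 slide and scan sets Cxcl9 differed by 10.06, 10.69 and 10.79. Cxcl16, a scavenger receptor and chemokine in 1 molecule, rose by 1.50 ± 0.25. The neutrophil chemokines were not called: Cxcl1 had levels of -3.19, -4.49 and -3.83 against -3.98, -3.68 and -2.68, Cxcl2 of -0.74, -1.75 and -0.46 against -3.11, -1.71 and -0.96. Their groups overlapped, with 95% intervals of -1.58 to 0.74 and -0.20 to 1.85. Cxcl3 (95% interval -0.46 to 2.23) was well above background on 2 of 3 IFN-γ arrays. Cxcl5 was well above background on none of the 10 arrays, and Cxcl14 was not called. Cxcl12, a stromal chemokine, was at least 3.34-fold lower, since no IFN-γ array had it well above background (adjusted p = 8.22e-04). "At least" here and below sets the group with signal against the dim group's arrays. Each dim array enters with its lowest reliable signal, or with its own level where that is higher. The adjusted p beside such a value is that of the fitted change.

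The CC chemokines were split. Of 12 tested genes 5 rose and 3 fell (median -0.32). Ccl8 had levels of 2.25, 2.15 and 2.24 against -4.02, -3.34 and -2.79 (5.53 ± 0.37), and Ccl5 (RANTES), which draws T cells and monocytes, of 8.11, 7.89 and 8.53 against 3.23, 4.23 and 4.63 (4.19 ± 0.24, adjusted p = 4.38e-12). Neither gene's groups overlapped. The monocyte chemokines Ccl7 (3.89 ± 0.75) and Ccl12 (3.58 ± 0.52) rose, with untreated Ccl7 levels (lowest, median and highest) of -1.91, 2.12 and 3.14. Ccl24, an eosinophil chemokine of alternative activation, was at least 6.99-fold lower (adjusted p = 8.14e-05), and Ccl9 (-1.14 ± 0.21) and Ccl6 (-1.02 ± 0.26) fell. The call of Ccl6 was lost without IFN-γ array F (-0.66). Ccl4, Ccl17 and Ccl22 were not called, though Ccl4 was lower without array G (-0.82). Receptors moved in both directions, with 8 rising and 6 falling of 24. Ccrl2 (4.38 ± 0.27), Fpr2 (3.69 ± 0.39), the formyl peptide receptor family member, and Ccr1 (2.28 ± 0.77, well above background on 5 of 7 untreated arrays) rose. Cx3cr1, the fractalkine receptor of resident macrophages, had levels of -3.67, -3.92 and -1.70 against 0.49, 1.47 and 2.18 and fell by 4.54 ± 0.51. Cxcr3 (-2.34 ± 0.46), Ccr3 (-1.76 ± 0.22) and the C5a receptor gene C5ar1 (-1.47 ± 0.46) fell. Calls were lost for Ccr1 without IFN-γ array E (1.66) or F (2.37), without untreated array B (2.09) or G (1.95) and with the scan day as a block (1.71) or normexp background correction (0.45), and for C5ar1 without IFN-γ array E (-1.26) or F (-1.34). Without IFN-γ array E 3 receptor genes were lower, and without array F also 3. Without array G 5 of the CC chemokine genes were lower.

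Genes that load peptides onto MHC class I rose together. Of 15 tested genes of the class I loading list 13 rose and 0 fell, with a median of 0.93. Tap2, which with TAP1 moves peptides into the endoplasmic reticulum, had levels of 4.72, 4.80 and 4.63 against 2.40, 2.63 and 2.96. All 3 treated arrays lay above, and the change of 2.03 ± 0.19 (adjusted p = 1.43e-08) was 4.09-fold. The peptide editor genes Tapbpl (2.63 ± 0.21) and Tapbp (1.50 ± 0.17), the trimming peptidase gene Erap1 (1.72 ± 0.21) and Tap1 (1.31 ± 0.22) rose. B2m, the light chain of all class I molecules, stood at 7.74, 7.55 and 7.91 against 6.13, 6.76 and 7.08 (1.04 ± 0.17). Heavy chain genes rose by 0.70 ± 0.16 (H2-K1), 0.86 ± 0.20 (H2-D1), 0.91 ± 0.18 (H2-Q7) and 0.93 ± 0.18 (H2-T23). These 4 genes are near-identical over long stretches, so their probes may report shared signal. H2-T22 (1.71 ± 0.25) and H2-M3 (0.88 ± 0.19), nonclassical heavy chains, rose, as did the disulfide isomerase gene Pdia3 (0.71 ± 0.18). The chaperone genes Canx and Calr were not called, with 95% intervals of -0.79 to 0.35 and -0.21 to 0.77. Without IFN-γ array G H2-M3 was higher (0.53), Pdia3 was no longer called (0.51; 0.39 with the slide as a block), and Canx was lower (-0.72). With quantile normalization 9 of these genes were higher and 1 lower.

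Subunits of the immunoproteasome, which replace constitutive ones under IFN-γ and favour class I peptides, rose. All 4 tested genes of the immunoproteasome list rose (median 1.40). Psmb9 had levels of 6.04, 5.98 and 6.22 against 4.52, 4.85 and 5.00 (1.25 ± 0.16, adjusted p = 1.79e-06), and Psmb8 of 6.13, 6.25 and 6.33 against 4.79, 5.06 and 5.40 (1.14 ± 0.19). Neither overlapped. Psmb10 (1.56 ± 0.22) and the activator gene Psme1 (1.64 ± 0.17) rose as well. Of 14 other proteasome subunit genes 12 rose and 0 fell (median 0.81), led by Psmb2 (1.31 ± 0.18), Psma1 (1.13 ± 0.14) and Psmb7 (0.96 ± 0.15), and with quantile normalization 6 were higher. Psmb6 and Psmb5, the constitutive counterparts of Psmb9 and Psmb8, were among the 12.

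MHC class II genes rose together. Of 11 tested genes 10 rose and 0 fell (median 2.57), and none of the 10 overlapped between groups. H2-Ab1, the β chain of I-A, had levels of 7.73, 7.52 and 7.62 against 4.05, 4.65 and 5.81, and H2-Aa, its α chain, of 5.15, 4.91 and 4.58 against 1.29, 2.12 and 3.10. The untreated arrays spread over more than 1.5 log2 units in both, and the treated arrays were tight. The changes were 2.82 ± 0.34 (adjusted p = 5.56e-07) and 2.73 ± 0.38. H2-Eb1 (3.03 ± 0.28) and the invariant chain gene Cd74 (2.65 ± 0.27) rose alike. The peptide exchange factors rose, both H2-DM chains (H2-DMa 2.49 ± 0.26, H2-DMb1 2.57 ± 0.21, H2-DMb2 2.51 ± 0.24) and the H2-DO chains that restrain them (H2-Oa 3.32 ± 0.36, H2-Ob 1.51 ± 0.29). The protease gene Ctss, whose product cuts the invariant chain, rose by 0.71 ± 0.16 (-0.0075 with quantile normalization). The thiol reductase gene Ifi30 was not called (95% interval -0.06 to 0.79), and H2-Ea was well above background on none of the 10 arrays.

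Genes of arginine and nitric oxide metabolism moved in both directions. Of 17 tested genes 7 rose and 5 fell, and 3 were lower without IFN-γ array E. Nos2, inducible nitric oxide synthase, had levels of 0.94, 0.16 and -1.25 against -8.35, -7.56 and -4.78, and was well above background on 1 of 7 untreated arrays. All 3 treated arrays were above, array G least (7.02 ± 0.62, adjusted p = 4.27e-09). Ass1, which recycles citrulline to arginine, rose by 2.31 ± 0.21, the arginine transporter gene Slc7a2 by 3.00 ± 0.50 (well above background on 5 of 7 untreated arrays) and Gch1, the first enzyme of tetrahydrobiopterin synthesis, by 1.55 ± 0.18. The later enzymes of that cofactor's synthesis and recycling fell: Spr (-1.46 ± 0.32), Qdpr (-0.91 ± 0.26) and Pts (-0.79 ± 0.21). Ddah2, which breaks down a natural inhibitor of nitric oxide synthases, had levels of -0.39, -0.33 and -0.28 against 1.58, 1.78 and 2.00 and fell by 2.11 ± 0.30. With median scaling 1 gene of the list was lower, where 1144 of all tested genes were, against 2962 in the main fit. Of the arginase genes, known as competitors of Nos2 for arginine, Arg2 rose by 3.60 ± 0.70. Arg1 lay at low levels (-5.24, -4.84 and -3.85 against -7.44, -6.58 and -4.61) that overlapped, and its change of 1.87 ± 0.61 (adjusted p = 0.0252) turned to -0.18 with normexp background correction and was not called without IFN-γ array G (1.47) or F (1.97). Both were well above background on 4 of 7 untreated arrays. Odc1, the first enzyme of polyamine synthesis, rose by 1.65 ± 0.36, and Oat had a change of -0.54 ± 0.20 that was called only with IFN-γ arrays E and F both included (-0.37 and -0.47 without them) and was lost without any 1 of 6 untreated arrays, all but G. The call of Qdpr was lost without array E (-0.72). Asl, Sat1, Slc7a1, Sms and Srm were not called. Srm was lower with the slide (-1.56) or scan day (-1.48) as a block, without IFN-γ array G (-2.03) and without untreated array C (-1.72) or G (-1.72).

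Genes of tryptophan breakdown rose. Ido1, which starts the kynurenine pathway, had levels of 1.68, 1.13 and -0.07 against -6.37, -5.39 and -4.77, with no overlap and array G lowest of the treated (6.30 ± 0.46, adjusted p = 1.87e-10). Kynu, a later enzyme of the pathway, rose by 5.17 ± 0.55 (well above background on 6 of 7 untreated arrays) and Ido2 by 2.61 ± 0.38. The cystine transporter gene Slc7a11 was at least 6.02-fold higher (adjusted p = 4.26e-07). Of 13 tested genes of this list 8 rose and 0 fell (median 1.73), and Slc1a2, Slc7a5 and Il4i1 were not called. With the slide or the scan day as a block, or without untreated array F, 1 was lower.

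Citrate cycle genes moved in both directions around aconitate. Acod1, which turns cis-aconitate into the antibacterial itaconate, had levels of 7.92, 8.03 and 8.42 against 2.42, 3.06 and 3.63. The groups were far apart (5.05 ± 0.21, adjusted p = 1.30e-14, 33.2-fold). Isocitrate dehydrogenase genes, on the other side of aconitate in the cycle, fell: Idh2 with levels of -3.08, -2.70 and -1.83 against 0.01, 0.46 and 0.66 (-2.94 ± 0.30) and Idh1 with -1.62, -1.57 and -1.43 against 0.09, 0.22 and 0.63 (-1.85 ± 0.24). Neither overlapped. Fh1 (-1.11 ± 0.19) and Aco1 (-0.64 ± 0.22) fell too, and Cs (0.58 ± 0.20) and Sdhb (0.67 ± 0.16) rose. The calls of Cs and Aco1 each rested on single arrays. That of Cs was lost without IFN-γ array G (0.25) and without untreated array C, D, E or G (0.54 for each), and that of Aco1 without IFN-γ array E (-0.39) or F (-0.61) and without untreated array B, F or G (-0.63 to -0.61). Of 15 tested genes 4 rose and 4 fell. With quantile normalization 1 was higher, and without IFN-γ array G 2 were.

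Glycolysis genes rose, and most respiratory chain genes did not pass the test. In the list of glycolysis and hypoxia genes, 21 of 27 tested members rose and 1 fell (median 1.40). Vegfa, an angiogenic growth factor, had levels of 5.92, 4.79 and 3.88 against 0.03, 0.65 and 1.55 and rose by 4.17 ± 0.48. Slc2a1 (GLUT1), the glucose importer, stood at 5.71, 5.42 and 6.02 against 1.81, 2.87 and 3.45, with no overlap (3.01 ± 0.34, adjusted p = 2.37e-07). Pfkfb3, whose product drives phosphofructokinase, rose by 3.18 ± 0.37 and the hexokinase gene Hk3 by 2.69 ± 0.20, while Slc2a3 (GLUT3) fell by 1.44 ± 0.38. Adm, Ankrd37 and Pfkfb4 were not called, and 2 members were lower without IFN-γ array E or with the scan day as a block. Of 30 respiratory chain genes 9 rose and 0 fell (median 0.18), led by Cycs (1.88 ± 0.25), Cox5a (1.15 ± 0.16) and Atp5b (0.92 ± 0.20). This set depends on the scaling, since with quantile normalization 3 were higher and 5 lower, and without IFN-γ array G or untreated array D 1 was lower.

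Antiviral genes known from the type I interferon response rose broadly. Of 39 tested genes 34 rose and 0 fell (median 1.32), where 12.7% of all genes rose. Oasl1 had levels of 6.84, 6.84 and 6.49 against 3.32, 3.39 and 3.77, with no overlap (3.24 ± 0.27, adjusted p = 1.67e-09). Ifi44 (2.84 ± 0.33) and Slfn4 (2.75 ± 0.34) were next. The gene of interferon-β itself, Ifnb1, had levels of 1.40, -0.48 and -0.19 against -5.07, -4.39 and -3.10. All 3 treated arrays lay above the untreated ones, array E highest (4.56 ± 0.61). Oas2, Sp100 and Slfn5 were not called, the last being higher without IFN-γ array G (0.85). Ubiquitin-like modifiers rose with them, 8 of 9 tested genes (median 1.28). Ubd (FAT10), which tags proteins for the proteasome, had levels of 2.93, 2.70 and 1.73 against -9.68, -8.24 and -6.21, was well above background on no untreated array, and was at least 536-fold higher (adjusted p = 1.05e-10). Isg15 (2.22 ± 0.25) and its ligase gene Herc6 (1.89 ± 0.22) rose, and Uba6 was not called.

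Cytokine genes rose without added LPS. Of 23 tested genes 15 rose and 2 fell (median 1.74). Il1b had levels of 4.30, 1.75 and 1.64 against -4.29, -3.69 and -1.12, with array E well above F and G and all 3 above the untreated (5.86 ± 0.58, adjusted p = 3.14e-08). Il6 was well above background on no untreated array and at least 15.5-fold higher (adjusted p = 2.58e-07), while it was so on all 3 IFN-γ arrays, with array E above F and G. Inhba (5.13 ± 0.34), an activin chain, and Il18bp (4.41 ± 0.34), the decoy receptor that neutralises IL-18, rose too. Il10 (-0.95 ± 0.27) and Tgfb1 (-0.66 ± 0.23), which restrain inflammation, fell, with calls that were lost without IFN-γ array E (-0.91 and -0.63) or F (-0.67 and -0.73). For Tgfb1 the call was also lost without IFN-γ array G (-0.63) and without untreated array C, D, E or F (-0.65 to -0.58). Csf3, Ebi3 and Il12a were not called. Among 27 receptor genes 14 rose and 3 fell (median 0.70). Il12rb1, a chain of the IL-12 and IL-23 receptors, had levels of 5.39, 5.50 and 5.21 against -2.02, -1.79 and -1.39, tight in both groups (7.11 ± 0.30, adjusted p = 1.30e-14, 138-fold). Il1r2, the IL-1 decoy receptor (3.63 ± 0.36), Il15ra (3.58 ± 0.29) and Il13ra1 (2.59 ± 0.31) rose. Il1rl1 (ST2), the IL-33 receptor, had levels of -4.29, -4.46 and -4.50 against 0.23, 0.43 and 0.86 and fell by 4.96 ± 0.49 (adjusted p = 3.30e-08).

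Genes of costimulatory, inhibitory and adhesion molecules of the cell surface mostly rose as well. Of 26 tested genes 16 rose and 2 fell (median 1.38). Slamf8, a SLAM family receptor of activated macrophages, had levels of 6.61, 6.59 and 6.30 against 0.00, 0.17 and 0.97 (6.18 ± 0.28, 72.7-fold), and Cd274 (PD-L1), which inhibits T cells, of 7.45, 6.83 and 6.34 against 1.38, 2.28 and 2.66 (4.84 ± 0.34, adjusted p = 1.10e-10). Groups of both were far apart, and Cd40 (4.18 ± 0.20) and Cd69 (4.30 ± 0.34) rose. The inhibitory ligand gene Vsir (VISTA, -1.49 ± 0.19) and Cd48 (-0.83 ± 0.26; not called without IFN-γ array G, -0.78, or E, -0.75) fell, while Cd80, Icosl and Itgax were not called. For Itgax the interval was wide (-2.32 to 3.32).

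Sensors and death genes rose too, and no tested gene of this list fell. Of 28 tested genes 20 rose and 0 fell (median 1.16). The peptidoglycan sensor genes Nod1 (3.16 ± 0.21) and Nod2 (2.57 ± 0.21), their kinase gene Ripk2 (2.76 ± 0.39) and the death receptor gene Fas (2.81 ± 0.24) led. Pycard, Bcl2l11 and Bcl2l1 were not called. Of 21 Toll-like receptor and adaptor genes 9 rose and 1 fell (median 0.40). Irak2 (2.03 ± 0.21) and Tlr3 (1.38 ± 0.29) rose, Lbp was lower at the margin (-0.92 ± 0.34, adjusted p = 0.0498), and Tlr2, Ly96 and Irak1 were near 0 and not called (95% intervals -0.55 to 0.49, -0.56 to 0.50 and -0.31 to 0.23). The call of Lbp was lost without any 1 IFN-γ array (-0.93 without F and -0.83 without G), without untreated array A, C, E, F or G (-0.95 to -0.77), and with the slide (-0.33) or scan day (-0.56) as a block. Of 19 NF-κB subunit and inhibitor genes 14 rose and 0 fell (median 1.24). The inhibitors Tnfaip3 (A20, 3.14 ± 0.21) and Nfkbie (3.06 ± 0.19) rose most, before the subunit gene Rel (2.19 ± 0.52, well above background on 6 of 7 untreated arrays). Among feedback phosphatases, Dusp10 rose by 3.56 ± 0.23.

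Receptors for antibody and the complement genes shifted member by member. Of 7 tested Fc receptor genes 3 rose and 2 fell. The activating receptor gene Fcgr4 had levels of 5.49, 5.79 and 5.97 against 2.72, 3.66 and 3.84 (2.25 ± 0.37, adjusted p = 4.24e-05), and Fcgr1 (CD64) of 7.89, 7.80 and 8.69 against 6.35, 6.88 and 7.08 (1.31 ± 0.23). Neither overlapped. The inhibitory receptor gene Fcgr2b stood lower, at 2.46, 1.89 and 2.21 against 2.88, 3.67 and 4.20 (-1.44 ± 0.25). The shared signalling chain gene Fcer1g rose by 0.54 ± 0.16 and the recycling receptor gene Fcgrt fell by 1.29 ± 0.46. Fcgrt was not called, leaving 1 lower gene, without IFN-γ array E (-1.38), F (-1.32) or G (-1.17) or untreated array C (-1.24) or G (-1.03), and Fcer1g not without IFN-γ array E (0.54). Fcgr3 and Syk were not called, though Syk was higher with the slide (0.65) or scan day (0.55) as a block.

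Of 17 tested complement genes 8 rose and 3 fell (median 0.58). The early classical pathway proteases C1s1 (5.15 ± 0.27) and C1ra (3.24 ± 0.29) and their substrates C4b (4.11 ± 0.31) and C2 (1.86 ± 0.23) rose. C4b had levels of 1.41, 1.67 and 1.29 against -3.27, -2.72 and -1.40, without overlap. Cfb, factor B of the alternative pathway, had levels of 6.60, 6.45 and 6.18 against 1.34, 1.77 and 2.23 (4.62 ± 0.32, adjusted p = 7.90e-11, 24.6-fold), and C3 of 8.72, 8.73 and 9.06 against 5.33, 5.79 and 6.18 (3.07 ± 0.23). Both were far outside the untreated range. The inhibitor gene Serping1 rose by 2.55 ± 0.59 (well above background on 4 of 7 untreated arrays), while Cd55 (-1.58 ± 0.35), which protects host cells, and C5ar1 fell. C1qc had a change of 0.64 ± 0.20 that was no longer called without IFN-γ array G (0.34), with the slide as a block (0.44) or with quantile normalization (0.042). C1qa, C1qb, Cfp, C3ar1, Cr1l and Itgam were not called. With the slide or scan day as a block C1qa was higher (0.38 and 0.47) and Cr1l lower (-0.68 and -0.46). Of 14 serpins and other protease inhibitors 10 rose and 1 fell (median 1.83). Serpina3g, an inhibitor of cathepsins, had levels of 7.59, 7.72 and 7.97 against -1.29, -0.51 and 0.79 and rose by 8.08 ± 0.33 (adjusted p = 1.11e-14), and Serpina3f rose by 8.72 ± 0.41. Members of that cluster are close copies of one another, which can share probe signal. Serpinb9 (3.54 ± 0.21), the granzyme B inhibitor, rose, and Timp2 fell (-2.40 ± 0.41).

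**Figure D3:**
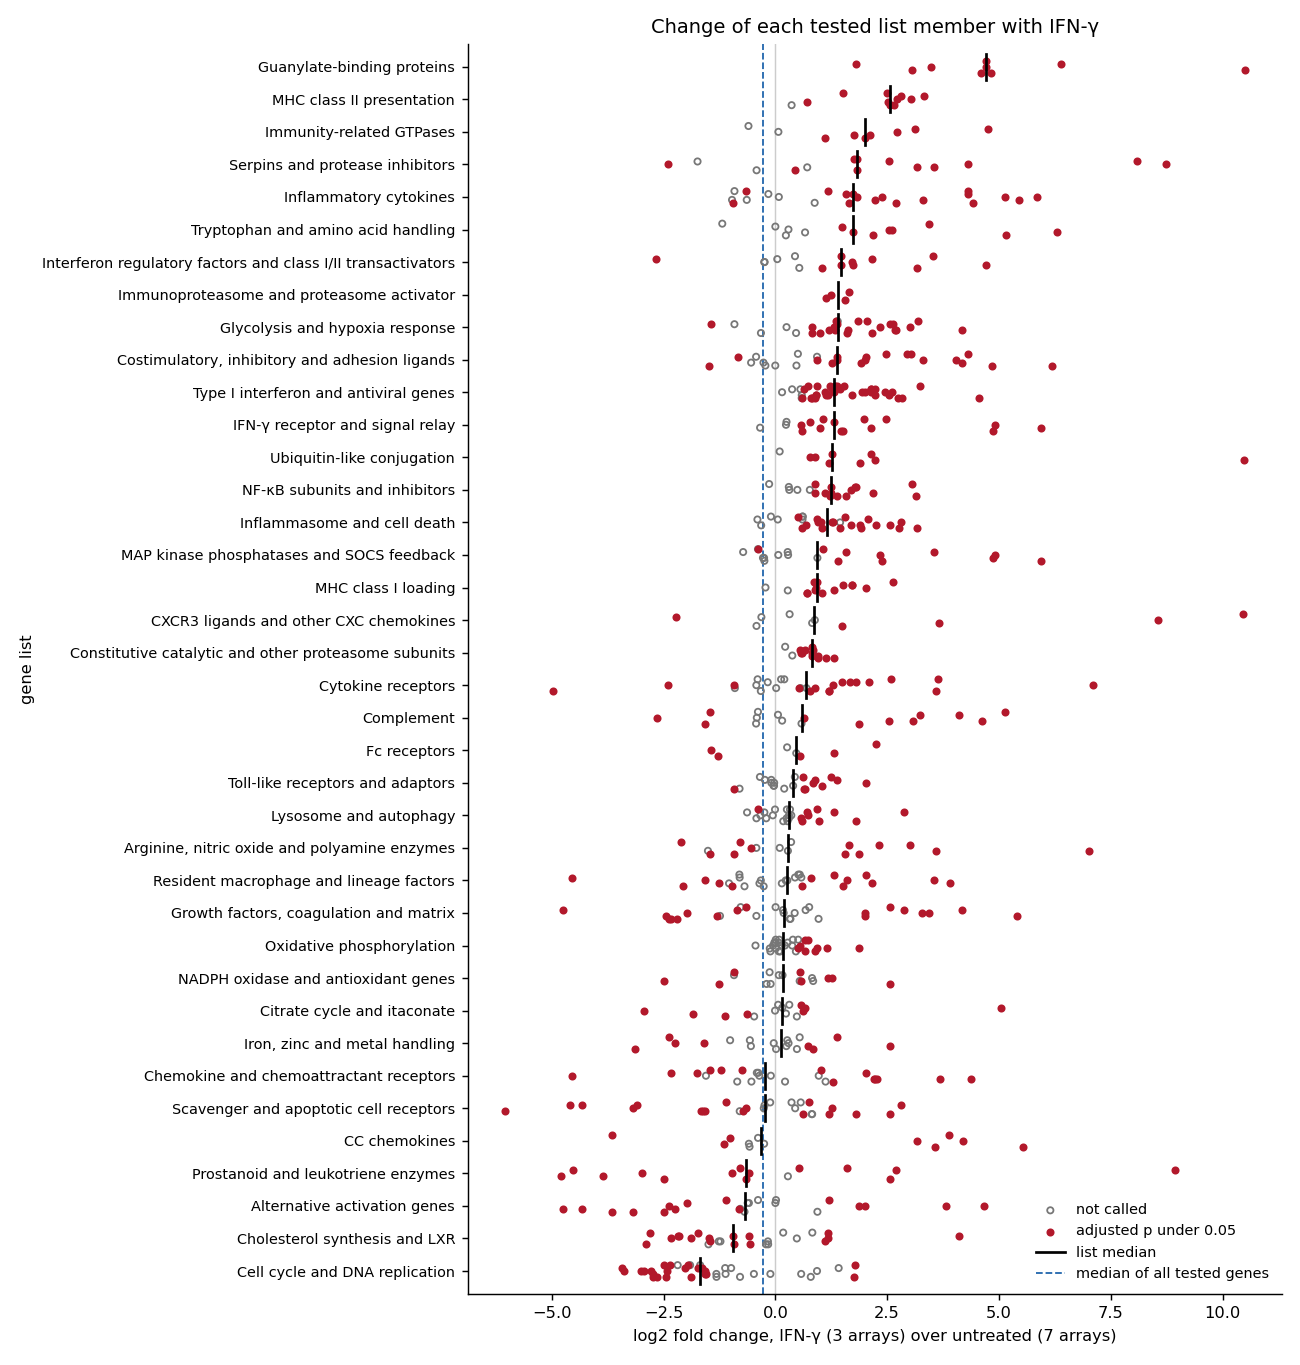
Log2 fold change of each tested member (points, red where the adjusted p was under 0.05) of 38 gene lists with IFN-γ (3 arrays) over untreated (7 arrays), lists ordered by their median (black bars), with the median of all tested genes (-0.29) as a dashed line. Guanylate-binding proteins have the highest median (4.70) and cell cycle genes the lowest (-1.68).

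Transporters, clearance receptors and genes of alternatively activated macrophages were among the largest falls. Slco2b1, an organic anion transporter, had levels of -4.53, -4.29 and -1.89 against 3.18, 3.41 and 4.60. Array G fell less than E and F and still lay far below the untreated range (-7.12 ± 0.62, adjusted p = 3.64e-09). Abca9, a transporter of lipids, was lower by at least 45.4-fold, and Cd163, which takes up haemoglobin, by at least 15.9-fold. Both are bounds, since neither was well above background on an IFN-γ array (adjusted p = 4.48e-10 and 1.04e-11). Of 27 scavenger and clearance receptor genes 7 rose and 11 fell. Mrc1, the mannose receptor CD206, had levels of -0.24, 0.00 and 0.32 against 3.75, 4.43 and 4.75, and Gas6, the bridge between dying cells and the receptors AXL and MERTK, of 0.42, 1.24 and 2.77 against 5.86, 6.05 and 6.32. All treated arrays were below (-4.32 ± 0.27, adjusted p = 1.12e-11, and -4.59 ± 0.39). The lectin gene Mgl2 fell by 3.19 ± 0.33. Clec4e (Mincle), which senses mycobacterial glycolipid, rose by 2.82 ± 0.28. Olr1 (2.57 ± 0.67) and Timd4 (1.81 ± 0.64) were called as higher but were well above background on 1 and 4 of 7 untreated arrays, and with normexp background correction both turned (-0.35 and -0.17). The call of Olr1 was lost without IFN-γ array E (2.18), and that of Timd4 without IFN-γ array F (1.93) or G (1.32) and without any 1 of the untreated arrays C to G (1.68 to 1.76). Marco, Stab2 and Cd93 were not called, and without IFN-γ array G or untreated array C 4 members were higher.

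Of 23 tested genes of alternative activation 5 rose and 10 fell (median -0.69). F13a1, coagulation factor XIII, had levels of -4.04, -4.52 and -3.92 against -0.41, 0.18 and 1.69 (-4.76 ± 0.53, adjusted p = 2.36e-07). The members that rose were led by Flt1 (4.68 ± 0.36), a VEGF receptor, and the transglutaminase gene Tgm2 (3.81 ± 0.23), followed by Pdcd1lg2 (2.00 ± 0.60, well above background on 4 of 7 untreated arrays) and Arg1. Pdcd1lg2 turned to -0.058 with normexp background correction and was not called without IFN-γ array E (1.85) or F (1.98). Without IFN-γ array E 3 members were higher, and without array F 2. Chil3, Rnase2a and Ccl22 were not called. Among lineage factors 9 of 28 rose and 5 fell, with Vdr (3.91 ± 0.62), Nr4a2 (3.55 ± 0.50) and Klf4 (2.02 ± 0.33) higher and Cebpa (-2.06 ± 0.35), Rxra (-1.58 ± 0.27) and Maf (-1.27 ± 0.30) lower. Spic and Nr4a1 were not called.

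Lipid mediator enzymes moved in both directions. Of 15 tested genes 5 rose and 9 fell (median -0.65). With median scaling 5 were lower, where 1144 of all tested genes were, against 2962 in the main fit. Ptgs2 (COX-2) had levels of 4.40, 2.51 and 0.65 against -7.44, -6.66 and -5.33. The treated arrays spread over more than 3 log2 units, array E highest, and all lay above the untreated, of which 3 of 7 had it well above background (8.94 ± 0.51, adjusted p = 3.58e-12). Ptges, which makes prostaglandin E2, rose by 2.56 ± 0.33 and the phospholipase gene Pla2g4a by 2.70 ± 0.50. Ptgs1 (COX-1) fell by 2.99 ± 0.49, Hpgd, which breaks prostaglandins down, was at least 13.6-fold lower (adjusted p = 3.49e-05), and the leukotriene enzymes fell: Alox5 had levels of -3.19, -3.50 and -0.51 against 1.56, 2.27 and 3.37 (-4.80 ± 0.67) and Ltc4s fell by 3.86 ± 0.28. For Alox5 array G lay nearer to the untreated range than E and F. Ptges3 was not called.

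Genes of cholesterol and fatty acid synthesis fell, though not evenly over the arrays. Of 26 tested genes 4 rose and 13 fell (median -0.94). In 4 genes all IFN-γ arrays lay below all untreated arrays, where 13.3% of all tested genes did. In 4 they lay above, where 11.6% of all tested genes did. Cyp51, a demethylase of cholesterol synthesis, had levels of -2.26, -2.21 and -1.68 against -1.06, 1.01 and 1.44 and did not overlap (-2.80 ± 0.50, adjusted p = 1.36e-04). Fasn, fatty acid synthase, had levels of 0.97, 2.15 and 3.45 against 2.58, 4.98 and 5.26, so its groups overlapped, and fell by 2.33 ± 0.65. Sqle fell by 2.18 ± 0.64. Without IFN-γ array E Fasn (-1.72) and Sqle (-1.93) were not called, nor was Sqle without array F (-2.07). Median scaling gave 3 lower members (1144 of all tested genes, against 2962 in the main fit). Leaving out IFN-γ array E gave 5 (1804 of all) and array F 7 (2146 of all). Among the members that rose was Ch25h, which makes the oxysterol 25-hydroxycholesterol, at 4.58, 5.50 and 6.12 against -0.40, 1.47 and 2.71 (4.10 ± 0.63, adjusted p = 1.90e-05). The cholesterol exporter gene Abcg1 (1.12 ± 0.19) and Mylip (1.17 ± 0.27), both LXR targets, and Npc2 (1.17 ± 0.17) rose as well, while Abca1 was not called.

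Among metal genes, the iron exporter and an iron importer both fell. Slc40a1 (ferroportin), which exports iron from macrophages, had levels of -3.31, -2.93 and -2.19 against -1.06, 0.42 and 1.38 (-3.14 ± 0.42, adjusted p = 3.26e-06), without overlap. The transferrin receptor gene Tfrc fell by 2.25 ± 0.29 and the zinc importer gene Slc39a8 fell by 2.37 ± 0.34. Slc11a1 (NRAMP1) rose by 1.38 ± 0.15 and the ferritin heavy chain gene Fth1 by 0.72 ± 0.21. The call of Fth1 was lost without IFN-γ array G (0.48) and with the slide as a block (0.49). Of 18 tested genes 4 rose and 4 fell, and 2 were higher without IFN-γ array G. Of 17 genes of the NADPH oxidase and antioxidants 5 rose and 3 fell. The oxidase genes Cybb (1.26 ± 0.26) and Cyba (0.58 ± 0.14) and Sod2 (2.56 ± 0.21) rose, and Nqo1 (-2.48 ± 0.54) and Cat (-1.25 ± 0.20) fell. Of 25 lysosome and autophagy genes 9 rose and 1 fell (median 0.30), led by the cathepsin genes Ctsc (2.87 ± 0.27) and Ctsh (1.80 ± 0.23), with Ctsd lower (-0.39 ± 0.14, though 0.054 with median scaling). The call of Ctsd was lost without IFN-γ array E (-0.27) or F (-0.45), without any 1 untreated array but E (-0.40 to -0.37), and with the scan day as a block (-0.37). With quantile normalization 4 were higher and 3 lower, and with the slide as a block 4 were lower. Of 29 genes of growth factors, coagulation and matrix 8 rose and 9 fell. Thbs1 (5.41 ± 0.79), Procr (3.43 ± 0.37) and F10 (3.28 ± 0.38) rose, and Igf1 (-2.32 ± 0.22), Mmp12 (-2.44 ± 0.36) and Mmp8 (-2.38 ± 0.53) fell.

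Genes of mitosis fell, and the arrays differed in how far. Of 37 tested genes of the cell cycle and DNA replication 2 rose and 20 fell (median -1.68), where 13.2% of all genes fell. Kif20a, a mitotic kinesin, had levels of -0.27, 0.08 and 2.38 against 3.71, 4.23 and 4.42, and Cdc20, which starts anaphase, of -0.50, -0.38 and 2.17 against 3.60, 3.73 and 4.21. In both, array G lay between the other treated arrays and the untreated range, without reaching the latter (-3.43 ± 0.56 and -3.38 ± 0.55, adjusted p = 4.33e-05). Plk1 (-3.00 ± 0.46) and Ccnb2 (-2.93 ± 0.43) showed the same order of arrays, with -0.17, -0.11 and 1.58 and 0.60, 0.99 and 2.94. The G1 cyclins Ccnd2 (3.78, 4.34 and 5.04 against 1.13, 2.91 and 3.74, 1.78 ± 0.45) and Ccne1 (1.75 ± 0.41) rose. For Ccnd2 the lowest treated array lay just above the highest untreated one, and the groups of Ccne1 overlapped. Pcna, Gmnn and Mcm6 were not called. With the slide as a block 5 members were higher and 29 lower, and with the scan day 4 and 29. Mcm6 was then lower (-1.67 and -1.13), as it was without IFN-γ array G (-2.06). Median scaling gave 13 lower members, with 1144 of all tested genes lower, and quantile normalization gave 26, with 2883. In the main fit 2962 of all tested genes were lower. In these bulk samples fewer cells that express a gene and less RNA per cell cannot be told apart.

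**Figure D4:**
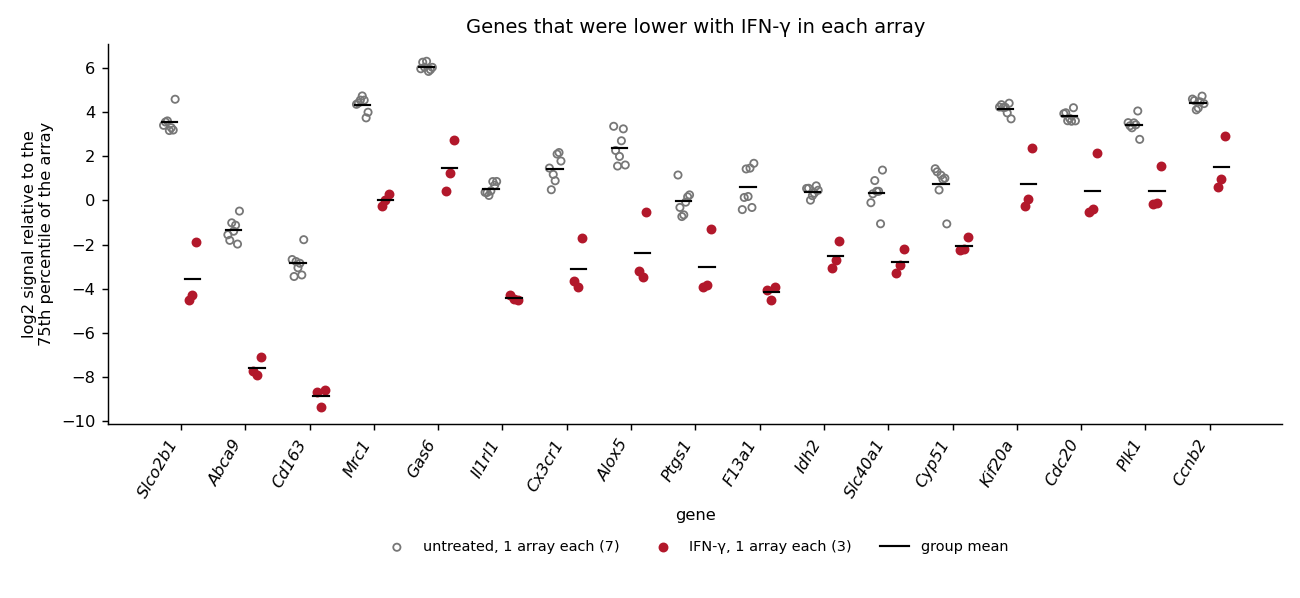
Levels of 17 genes lower with IFN-γ in each untreated array (open circles, n = 7) and each IFN-γ array (filled circles, n = 3), as log2 signal relative to the 75th percentile of the array, with group means as bars. For each of these genes the filled circles lie below all open circles, and in Kif20a, Cdc20, Plk1 and Ccnb2 array G is the highest of the 3.

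Further genes among the 20 largest rises belong to none of these lists. Dnase1l3, a secreted nuclease, had levels of 2.57, 2.85 and 1.54 against -6.02, -5.17 and -4.80 (7.63 ± 0.47, adjusted p = 8.85e-12), and Clic5, of the chloride channel family, of 3.31, 2.95 and 3.14 against -4.17, -3.69 and -3.45 (6.85 ± 0.41). Ocstamp, a membrane protein of cell fusion in osteoclasts, had levels of 2.06, 2.31 and 3.55 against -5.09, -3.91 and -2.58 (6.51 ± 0.43). All 3 genes had no overlap. Prm1, a protamine known from sperm chromatin, had levels of 3.79, 3.21 and 2.87 against -3.64, -3.18 and -2.08 (6.35 ± 0.43). Slc6a19, an amino acid transporter known from gut and kidney, had levels of 0.03, -1.03 and -1.79 against -7.79, -7.25 and -6.12 and was well above background on 1 of 7 untreated arrays (6.17 ± 0.54). BC023105 was at least 46.8-fold higher (adjusted p = 1.60e-09). The other 2 probes of that size carry an array name and no gene symbol, A_52_P480044, at least 92.6-fold higher (adjusted p = 1.78e-12), and NAP111601-1 (6.54 ± 0.50, well above background on 5 of 7 untreated arrays).

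The largest falls outside the lists were of varied kinds. Rnf150 (-5.62 ± 0.49) encodes a RING finger protein, Cbr2 (-5.29 ± 0.30) a carbonyl reductase, Cmah (-5.24 ± 0.46) the enzyme that makes the sialic acid Neu5Gc, and Kcne3 (-5.03 ± 0.43) a potassium channel subunit. Cmah had levels of -5.30, -5.66 and -5.43 against -0.44, -0.20 and 0.07, tight in both groups. Slc9a9 (-4.83 ± 0.35), an endosomal exchanger, Fbln5 (-4.81 ± 0.28), a matrix protein, Adgre4 (-4.71 ± 0.86), an adhesion receptor of the F4/80 family, Nat8l (-5.00 ± 0.56) and Rtkn2 (-4.67 ± 0.53) fell. The last 2 of these were well above background on 1 of 3 IFN-γ arrays. On no IFN-γ array were the platelet chemokine gene Ppbp (at least 11.8-fold lower), Lrrc17 (9.74-fold), Stxbp6 (26.9-fold), Dscam (15.0-fold) or the unnamed transcript AK053990 (34.0-fold) well above background, with adjusted p of 2.39e-12, 2.59e-11, 7.68e-12, 2.02e-08 and 3.95e-11.

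Markers of other cell types were measured beside these results, and their part in them was not tested. The summed signal of the 10 macrophage markers, in units of the array's 75th percentile, was 606 to 864 over untreated and 1000 to 1585 over IFN-γ arrays. Such a sum follows the brightest probes. Of the 10 genes 4 rose and 1, Cd68, was lower (-0.33 ± 0.12, though 0.12 with median scaling and not called without any 1 IFN-γ array). A second probe of Lyz2, lysozyme, moved the other way (-1.20) from the one used (0.75). The sum of 12 T and natural killer cell markers was 0.843 to 1.06 and 0.444 to 0.652, with Gzma well above background on no array and the IFN-γ gene itself, Ifng, on 0 of 3 IFN-γ and 1 of 7 untreated arrays. Of the 10 tested 1 rose and 2 fell. Of the 9 dendritic cell markers the sums were 2.58 to 5.10 and 6.03 to 9.06. Clec9a had levels of -0.92, -0.85 and -1.20 against -6.99, -6.22 and -4.94 (5.11 ± 0.40, well above background on 4 of 7 untreated arrays), Zbtb46 rose by 2.56 ± 0.62 and Dpp4 by 2.05 ± 0.42. Xcr1 and Flt3, defining genes of the same cells, were not called (95% intervals -0.30 to 0.69 and -1.76 to 0.08), and Siglech was well above background on no IFN-γ array. Sums of granulocyte markers were 18.0 to 32.2 and 24.0 to 54.0, while of the 11 tested 1 rose and 3 fell (median -0.37), Mmp8 among the latter. Sums of endothelial markers were 11.8 to 15.6 and 16.0 to 23.1. Of these 7 genes 2 were higher, Kdr (2.32 ± 0.38) and Pecam1 (1.72 ± 0.45), and 1 lower, Cldn5 (-1.21 ± 0.45), with Cdh5, Tek and Vwf not called. Pecam1, well above background on 5 of 7 untreated arrays, turned to -0.0099 with normexp background correction and was not called without IFN-γ array E (1.34). Sums of B cell, mast cell and basophil, stromal and erythroid markers reached at most 12.9, 0.203, 0.482 and 0.335 in IFN-γ arrays, against 33.4, 0.457, 0.655 and 0.845 in untreated arrays.

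The IFN-γ arrays were also set directly against the LPS arrays, which asks where the 18 h cytokine response differs from the 4 h response to a bacterial product in cells of the same kind. The times differ between these groups. Compared with LPS alone, 3419 genes (15.2%) were higher and 3923 (17.5%) lower with IFN-γ. MHC class II presentation stood on the IFN-γ side, with 10 of 11 genes higher and 0 lower (median 1.96, all genes -0.35). H2-Ab1 differed by 1.60 ± 0.34, H2-DMa by 2.46 ± 0.26, H2-Oa by 2.66 ± 0.36 and Ciita by 3.19 ± 0.44 (adjusted p = 3.04e-06). Higher with IFN-γ than with LPS were also Ubd (9.74 ± 0.74, well above background on 1 of 7 LPS arrays), Gbp2b (6.71 ± 0.64), Il12rb1 (5.20 ± 0.30), Dnase1l3 (5.18 ± 0.47), Clec9a (5.05 ± 0.40), Vegfa (5.42 ± 0.48), Angpt2 (5.26 ± 0.46), an antagonist of the vessel receptor TIE2, and the hyaluronidase gene Hyal1 (5.24 ± 0.47). In the classical complement pathway C4b (3.54 ± 0.31) and C1s1 (3.33 ± 0.27) were on this side. Of glycolysis and hypoxia genes 18 of 27 were higher and 4 lower with IFN-γ.

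On the LPS side stood the cytokines and neutrophil chemokines. Of 23 cytokine genes 2 were higher and 18 lower with IFN-γ than with LPS alone (median -2.72). Edn1, endothelin, differed by -8.56 ± 0.41, Il6 by -7.47 ± 0.61 (adjusted p = 1.20e-09) and Il12b by -7.09 ± 0.54. Cxcl3 (-7.19 ± 0.65, well above background on 2 of 3 IFN-γ arrays), Cxcl1 (-6.54 ± 0.56) and Cxcl2 (-4.22 ± 0.50) were lower. Of 19 NF-κB genes 0 were higher and 16 lower with IFN-γ. Socs3 (-3.66 ± 0.33), Batf (-3.85 ± 0.16), Fcgr2b (-4.82 ± 0.25) and Cx3cl1 (-6.41 ± 0.51), fractalkine, were lower as well. Members of several IFN-γ lists did not differ at the threshold between the treatments. Gbp2 (95% interval of the difference -0.30 to 1.04) and Irgm1 missed it, and of 15 class I loading genes 2 were higher and 1 lower (1 and 0 with the slide as a block). No antiviral gene was higher with IFN-γ, or 1 with the slide or scan day as a block, and 26 of 39 were lower. Irf8 (-0.49 to 0.83), Socs1 (-0.22 to 0.77) and Nos2 (-2.49 to 0.05) also missed the threshold. These intervals allow differences of the stated size, so equal levels are not shown. With median scaling 12 antiviral genes were lower with IFN-γ and 2 higher, and 10 NF-κB genes were lower. Of all tested genes 1903 were then lower and 4202 higher. Without IFN-γ array G 2 NF-κB genes were higher, and with the slide or scan day as a block 1 was. Of the cytokine genes 4 were higher with the slide as a block.

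The IFN-γ arrays were set against the IL-4 arrays to ask where the priming cytokines part, at the same 18 h. IFN-γ stood higher in 2926 genes (13.0%) and lower in 3334 (14.9%) than IL-4 alone. The experiment letters of these groups share G alone, and the contrast of those 2 arrays, with the spread taken from the other groups, gave 1378 calls. Of the IFN-γ and IL-4 arrays only the 2 of letter G shared a scan day, and no slide held both treatments. Slides and scan days thus mostly differed along with the treatment. With the slide as a block 3474 genes were higher and 3579 lower, and with the scan day 3604 and 3402. Without IFN-γ array E 2197 genes were lower. All 9 guanylate-binding protein genes (median 5.90) and all 39 antiviral genes (median 2.80) were higher with IFN-γ. Gbp4 differed by 8.50 ± 0.53, and Il1b, well above background on 3 of 4 IL-4 arrays, by 8.09 ± 0.64. Cxcl11, Ptgs2 and Ubd were well above background on no IL-4 array and at least 1788-, 312- and 298-fold higher with IFN-γ (adjusted p = 7.00e-17, 1.72e-12 and 6.39e-10). Of alternative activation genes 2 of 23 were higher (1 without IFN-γ array F) and 19 lower (median -4.65). The lectin gene Mgl2 (-9.89 ± 0.37) and Arg1 (-8.95 ± 0.68, adjusted p = 1.66e-10) were lower. On no IFN-γ array were the ribonuclease genes Ear10 (at least 197-fold lower than with IL-4) and Ear3 (128-fold), fibronectin (Fn1, 149-fold), E-cadherin (Cdh1, 150-fold) or Cd163 (59.7-fold) well above background, with adjusted p of 4.09e-10, 2.91e-10, 1.43e-10, 3.38e-11 and 2.07e-13. Ear10 and Ear3 are near-copies whose probes may share signal. MHC class II genes were again higher with IFN-γ, 8 of 11 with 0 lower (median 1.24, all genes -0.30). H2-Ab1 differed by 1.62 ± 0.37 and H2-Oa by 4.49 ± 0.40, and Ciita missed the threshold (adjusted p = 0.11, with an unadjusted 95% interval of 0.06 to 2.05), while it was higher with the slide (2.19) or scan day (1.99) as a block. Of the relay genes Socs1 differed by 0.86 ± 0.27, a call lost without IFN-γ array E (0.85) or IL-4 array B (0.71), and Cish, a target of STAT5 and STAT6, was not called (95% interval -2.57 to 0.38), while Irf4 (-6.29 ± 0.41) and Batf3 (-4.43 ± 0.35) were lower with IFN-γ.

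**Figure D5:**
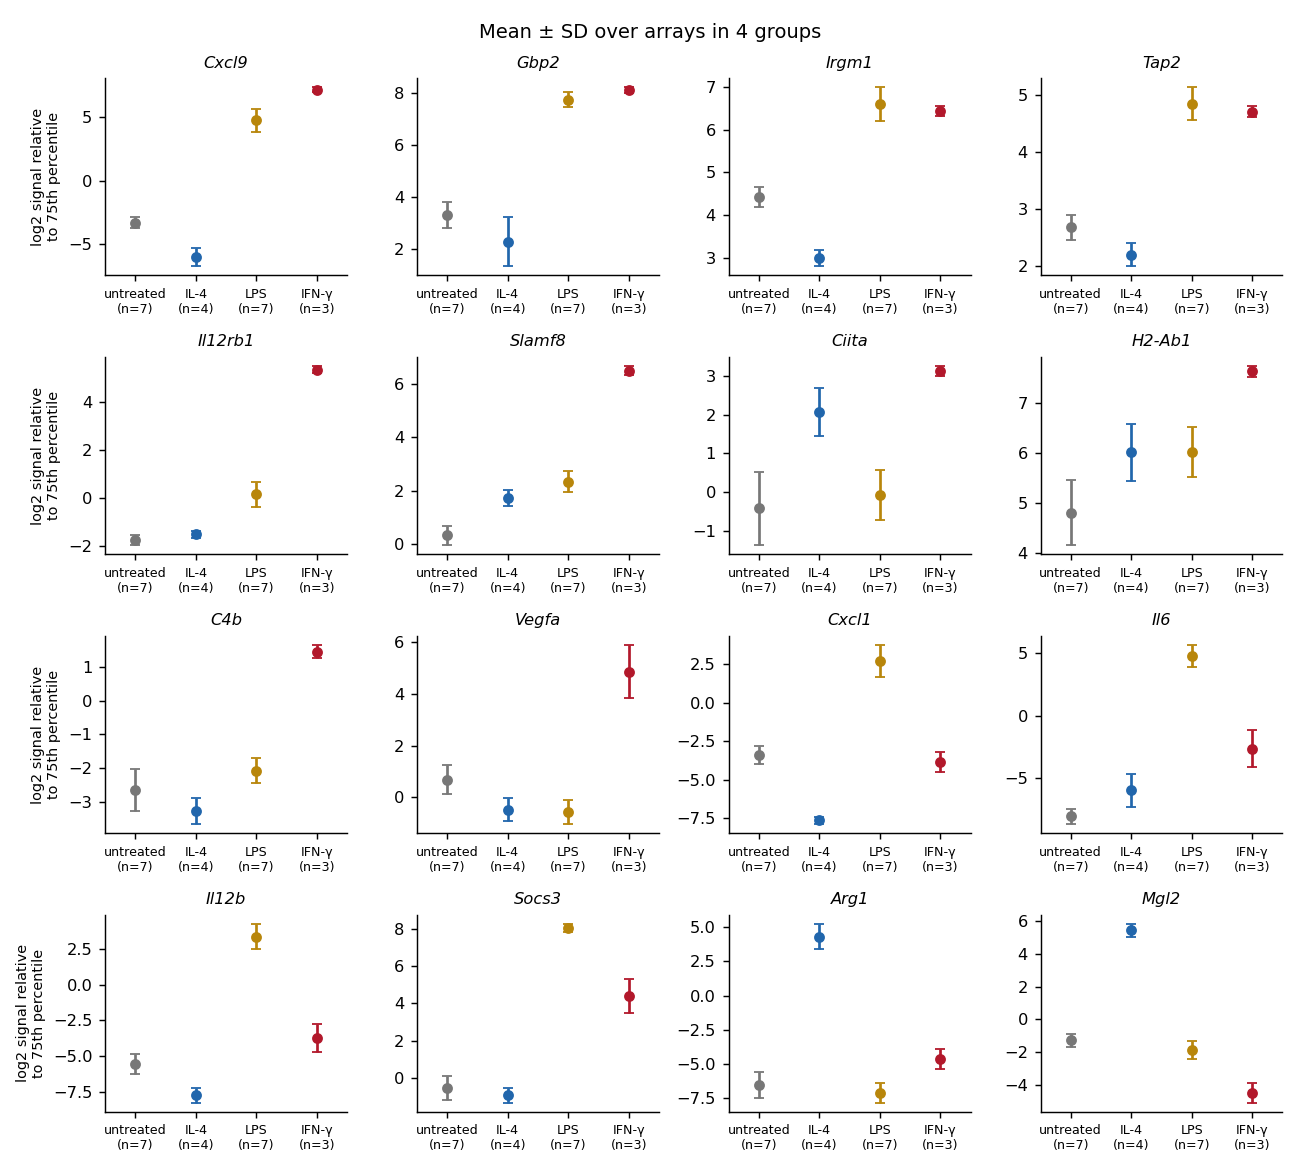
Mean ± SD over arrays of the level (log2 signal relative to the 75th percentile of the array) of 16 genes in untreated (n = 7), IL-4 (n = 4), LPS (n = 7) and IFN-γ (n = 3) cells; the vertical axis differs between panels. Cxcl9, Il12rb1, Slamf8, H2-Ab1 and C4b are highest with IFN-γ, Cxcl1, Il6, Il12b and Socs3 with LPS, and Arg1 and Mgl2 with IL-4.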

How the data were processed

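RNA of each sample was hybridised to 1 Agilent 44K array and labelled with Cy3, and the deposited scanner files hold 1 processed intensity per spot, which per the file headers came from Agilent Feature Extraction (9.5.1 per the submitters' processing notes). Its spatial and multiplicative detrending were switched on and a separate background correction was off, per the same headers. Control and outlier spots were left out, spots of a probe averaged, log2 taken, and each array's 75th percentile subtracted. Probes were named through RefSeq accessions (22951), current symbols (6659) or synonyms (3109), and 8455 keep the array's own name. The brightest probe stood for a gene, and genes well above background on at least 3 of 28 arrays were tested with limma 3.58.1 in R 4.3.3, as 6 group means over all 28 arrays. The fit was tested on simulated data. The number of arrays limits the precision, and nothing more is stated of separate cultures than independent experiments.

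Named genes are the 20 largest rises and falls, all members of the core interferon lists, per other list 4 rises, 4 falls and the 3 largest adjusted p, the cell type markers, and the 10 largest differences each way from LPS and IL-4. The genes and lists were chosen with earlier results of these data known. Genes such as Nlrc5, Tgtp2 and Psme2 carry no probe under those names and were not analysed here, and some genes that the rule names are not reported here. The deposited value table of the series was not used.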

Additional observations from a re-analysis of the deposited data

Results flagged for a closer look

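In 36 of the 347 genes named, 1 of the 7 untreated arrays stood apart from the other 6, by a gap larger than Dixon's 95% limit for the share of the group's range. Chance alone flags about 1 in 20 groups, and the genes are not independent of one another. Levels are log2 signal relative to the 75th percentile of the array. Untreated array G accounts for 21 of these genes. Untreated array G was the highest of its group for Arg1 (-4.61 against -6.33 in the next array), C1s1 (-3.68 against -4.19), Ccl24 (-1.82 against -3.78), Cd68 (6.29 against 6.11), Csf1r (6.90 against 6.25), Csf3 (-5.07 against -7.15), Ctsh (6.95 against 6.23), Edn1 (-5.28 against -7.01), Fcgrt (4.30 against 3.04), Hpgd (-0.44 against -2.71), Il4i1 (-0.80 against -1.87), NAP111601-1 (-4.31 against -5.57), Nr4a1 (2.30 against 0.90), Pfkfb3 (1.83 against 1.35), Slc7a2 (-3.49 against -5.60), Slco2b1 (4.60 against 3.61) and Vdr (-3.20 against -4.80). It was the lowest for Calr (4.04 against 4.72 in the next array), Cyp51 (-1.06 against 0.48), Gch1 (0.68 against 1.33) and Oat (2.78 against 3.10).

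Untreated array E was the lowest of its group for Adgre1 (6.81 against 7.18 in the next array), Batf2 (0.84 against 1.42), Ctss (7.71 against 7.98), Fth1 (7.57 against 7.95), H2-T23 (6.86 against 7.43), Psmb10 (5.03 against 5.67) and Tapbp (5.63 against 5.96). Untreated array F was the lowest of its group for Ccrl2 (0.014 against 0.54 in the next array), Cd48 (4.34 against 4.80), Clic5 (-4.17 against -3.75), Fcgr4 (2.72 against 3.37) and Jak1 (3.21 against 3.76). Untreated array B was the highest of its group for Olr1 (-4.63 against -7.63 in the next array). It was the lowest for Slc11a1 (4.44 against 4.78 in the next array). Untreated array A was the highest of its group for Mmp12 (3.17 against 2.31 in the next array).

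Among the 43 genes set against LPS or IL-4, 6 stood apart in the 7 LPS arrays and 1 in the 4 IL-4 arrays. LPS array C was the highest of its group for Angpt2 (-3.04 against -4.52 in the next array). It was the lowest for Cxcl11 (3.04 against 3.92 in the next array), Fn1 (-6.83 against -5.56), Irf4 (-5.96 against -5.15) and Socs1 (5.14 against 6.12). LPS array E was the lowest of its group for Hyal1 (-5.73 against -4.75 in the next array). IL-4 array G was the lowest of its group for Cxcl11 (-8.15 against -7.53 in the next array).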

How the results depend on the processing

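Of 345 named genes tested against untreated cells, 318 kept their direction and their side of the threshold with median scaling, 310 with quantile normalization and 294 with normexp background correction, and the leave-one-out fits kept between 322 and 340. Normexp gave 2682 called genes (1678 higher and 1004 lower) against untreated cells, 3452 (1853 and 1599) against LPS and 3065 (1702 and 1363) against IL-4. Median scaling gave 1144, 1903 and 1327 lower genes in these comparisons. Requiring a 2-fold difference as well gave 3603 and 4696 calls against untreated cells and LPS. The contrast of the letter G arrays against IL-4 gave 1378 calls (982 higher and 396 lower). Leaving out 1 array gave 3990 to 5775 calls against untreated cells, 5767 to 8311 against LPS and 4505 to 6652 against IL-4; lower genes ran from 1804 (without IFN-γ array E) to 3004 (without untreated array C) against untreated cells and from 2197 (without IFN-γ array E) to 3625 (without IFN-γ array G) against IL-4. These moves were in counts, and the cause was not tested.

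Some directions turned. With normexp Arg1 (-0.18), Olr1 (-0.35), Pdcd1lg2 (-0.0575), Pecam1 (-0.0099) and Timd4 (-0.17) were no longer higher than untreated, Arg1 was lower than with LPS (-0.24), and Cxcl1 was lower than with IL-4 (-0.0845). With median scaling Cd68 (0.12) and Ctsd (0.054) and with quantile normalization Cfp (-0.48) and Ctss (-0.0075) changed sign. The first 5 of these genes were not well above background on every untreated array. Of the named genes Lyz2 has probes that disagree, and the mean over them gave -0.22.

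Experiment letters were not used as a pairing in the main fit, and whether they pair the arrays was not tested. The deviations of same-letter IFN-γ and untreated arrays correlated at -0.10 for E, -0.25 for F and -0.19 for G across genes. With the letter as a replicate block 5004 genes were called, of which 4767 were among the 5803. Pairs that share a slide or scan day varied. IFN-γ E with untreated C correlated at 0.19, F with D at 0.13 and G with F at 0.38. E with D, at -0.056, and F with C, at 0.016, were near 0. IFN-γ F correlated most with untreated G (0.18), which shares neither its slide nor its scan day. With the slide as a block 7444 genes were called against untreated cells, and with the scan day 7152.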
